A study of Rattus norvegicus with 8 samples.

Results

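Microglia are the resident macrophages of the brain, and 10 genes that mark them were followed here through 8 libraries of rat oligodendrocyte precursor cells (OPCs) in culture. OPCs are the proliferating glia that give rise to myelin-forming cells. The genes were Csf1r, Cx3cr1, P2ry12, Trem2, Itgam, Tyrobp, Fcer1g, Ptprc, Aif1 and Cd68, taken as the rows whose symbol equals the name among 32883 rows of gene values. Of the 10, 9 have a row of their own, and Itgam shares 1 row with Itgad, a neighbouring integrin gene, so its value cannot be assigned to either gene alone. Cells came from the cerebral cortex of Sprague Dawley rats aged 1 to 2 days, with 4 libraries from male and 4 from female animals. Mixed glia were grown in medium with 20% serum. The non-adherent cells were then kept for 4 to 5 days in Neurobasal medium with 2% B27 and with PDGF and FGF at 10 ng/ml each. No genotype or drug differed between the groups, and whether each library stands for its own litter or animal is not stated in the labels. The p-values therefore reflect only how far these 8 samples vary, which may be technical. Values are the authors' FPKM, which scale fragments by transcript length and library size. Differences, with their standard error, are of log2(FPKM + 1), male minus female, a scale that understates the change of low genes.

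Microglia depend on the receptor encoded by Csf1r for survival, and they sense their surroundings through receptors for chemokines, nucleotides, lipids and opsonised particles. Several of these receptors have no signalling tail of their own and work through the small membrane adaptors encoded by Tyrobp (DAP12) and Fcer1g (the Fc receptor gamma chain). Each adaptor carries an immunoreceptor tyrosine-based activation motif (ITAM) that recruits the kinase Syk when phosphorylated. Mixed glial cultures contain microglia that grow on top of the astrocyte layer together with OPCs, so OPCs collected from such cultures can carry some of them along. Aif1, an actin-binding protein gene also known as Iba1, and Cd68, the gene of a lysosomal glycoprotein of phagocytes, are markers of these cells rather than receptors at their surface.

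RefSeq (assembly GRCr8) holds a promoter entry, from 250 bases before to 50 after the start, for 6 of the members, namely Csf1r, Cx3cr1, Trem2, Ptprc, Itgam and Cd68. They were searched on both strands for GAGGAAGT, the letters of a binding motif of the myeloid factor PU.1 (gene Spi1), and for its core GAGGAA, which lies within it. The longer motif was in 0 of the 6, against 2.42% of 33469 promoters of the same length. The core was in 5 of the 6, all but Cx3cr1, and in 27.6% of all promoters. A match is a description of letters, not of a binding site. The promoters of Cd68 and Trem2 are shown up to the start because both genes hold the core close to it, at positions -27 and -29 counted from the start. Cd68 holds another core, on the other strand, at position 4 after the start, outside the window shown. They were chosen after the matches were seen. Each is on the minus strand and printed 5′ to 3′ along the gene, with the core, here as its reverse complement, in capitals. The Cd68 window is chr10:54882442-54882691 and the Trem2 window chr9:20151780-20152029.
Cd68: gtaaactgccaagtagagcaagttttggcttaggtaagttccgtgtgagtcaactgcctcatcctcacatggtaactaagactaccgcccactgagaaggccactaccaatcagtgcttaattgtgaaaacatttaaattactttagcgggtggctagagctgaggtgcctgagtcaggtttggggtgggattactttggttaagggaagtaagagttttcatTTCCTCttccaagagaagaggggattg
Trem2: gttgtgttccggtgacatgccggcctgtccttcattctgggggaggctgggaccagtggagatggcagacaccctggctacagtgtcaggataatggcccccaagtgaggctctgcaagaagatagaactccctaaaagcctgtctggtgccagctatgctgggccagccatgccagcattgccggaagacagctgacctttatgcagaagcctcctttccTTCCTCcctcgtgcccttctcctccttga

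All 10 rows had higher mean FPKM in female than in male cultures. With no filter on low values, so that each of the 10 rows was tested, 5 were called as higher in female cultures and 0 in male ones (limma, Benjamini-Hochberg adjusted p under 0.05). Of all 15938 genes in that fit 1.63% were called in the female and 1.73% in the male direction. The called genes were Csf1r, Cx3cr1, Fcer1g, Aif1 and Cd68. In 8 of the 10 rows every female library lay above every male one, which held for 5.36% of the genes in that fit. The exceptions were P2ry12 and Ptprc. In the main analysis, limited to genes averaging 1 FPKM or more across libraries, 8 members remained and the same 5 were called, against 2.89% of 11263 genes in this direction, and against 1.39% of the tested genes with a mean from 1 to 5 FPKM, where 4 of the 8 lie. Cx3cr1, P2ry12 and Trem2 passed that filter through their female values, their male means being below 1 FPKM, so the main count alone says little about the members. These RNA measurements cannot tell fewer cells of a type from less RNA per cell.

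**Figure D1:**
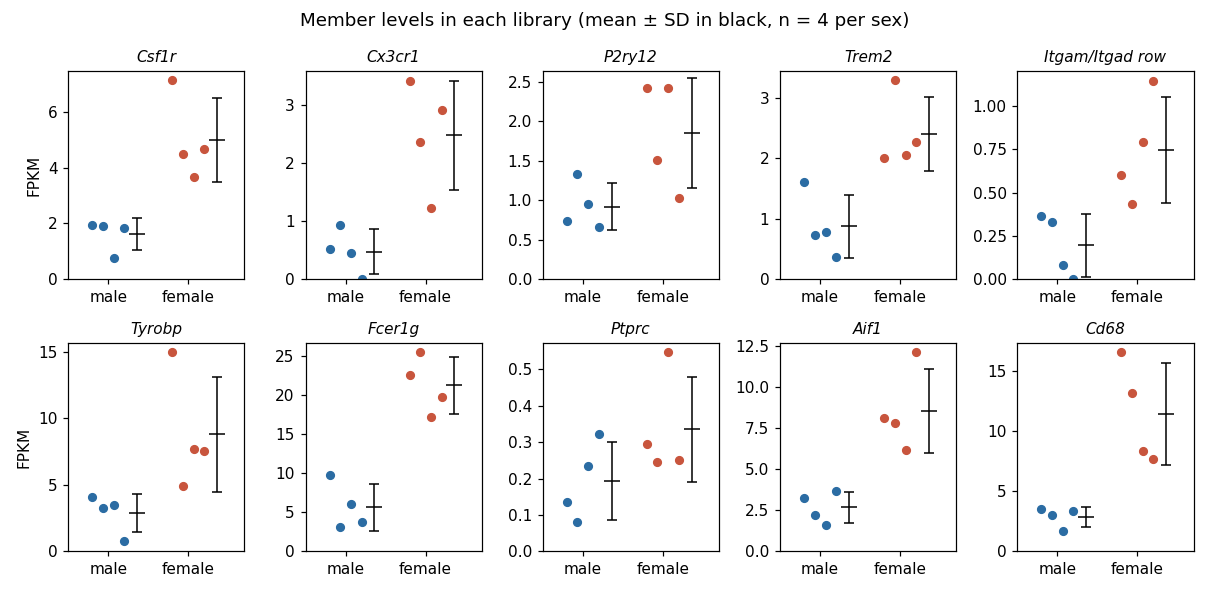
FPKM of each member in the 4 male (blue) and 4 female (red) libraries, with the mean ± SD in black (n = 4 per sex). Each panel has its own axis from 0, and Itgam is shown as the row it shares with Itgad. In all panels but P2ry12 and Ptprc, the lowest female point lies above the highest male point.

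**Figure D2:**
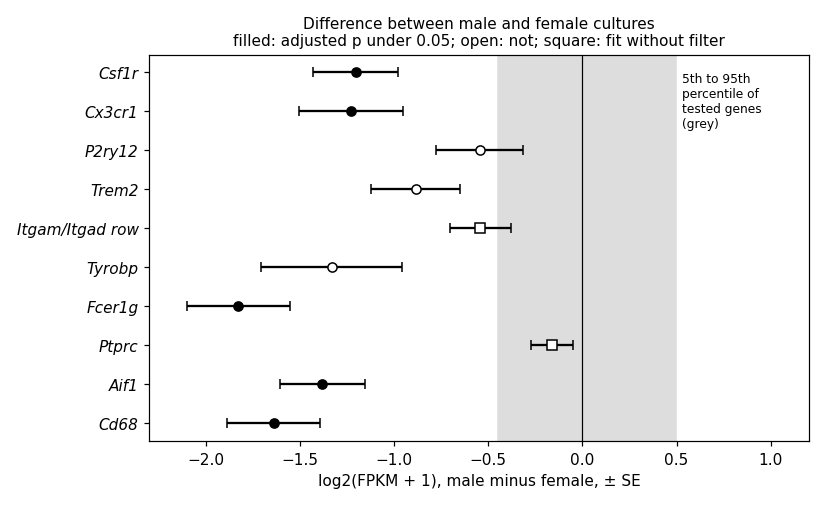
Difference between male and female cultures on the log2(FPKM + 1) scale, with the standard error. Filled points have an adjusted p under 0.05, open ones do not, and squares come from the fit without a filter. The grey band holds the 5th to 95th percentile of all 11263 tested genes, from -0.45 to 0.50, and all members but Ptprc lie to its left.

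Among the receptors, Csf1r (ENSRNOG00000018414), which encodes the receptor for the growth factors CSF1 and IL-34, was listed at 1.93, 1.89, 0.746 and 1.84 FPKM in the male libraries (1 to 4) and at 7.16, 4.50, 3.66 and 4.66 FPKM in female 1 to female 4. The groups did not overlap, male 3 was the lowest library and female 1 the highest. Mean levels were 1.60 ± 0.573 against 5.00 ± 1.51 FPKM (SD, n = 4 each), and the difference was -1.20 ± 0.23 on the log2(FPKM + 1) scale (limma adjusted p = 0.0117). Csf1r kept its call in all 17 alternative analyses at the threshold of 0.05, with adjusted p between 0.0105 and 0.0419.

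Cx3cr1 (ENSRNOG00000018509), the gene of the fractalkine receptor, was listed at 0.516, 0.934, 0.448 and 0 FPKM in the male libraries (1 to 4). In female 1 to female 4 it stood at 3.41, 2.35, 1.23 and 2.90 FPKM. No female library was as low as any male one. The difference of -1.23 ± 0.28 on the log2 scale was called (limma adjusted p = 0.0263). The call was lost without male 3, male 4, female 1, female 2 or female 4 in turn (adjusted p from 0.0532 to 0.0849), with a depth covariate (0.0925), with the replicate number as a block (0.0639) and with a pseudocount of 0.1 (0.0648).

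Trem2 (ENSRNOG00000013578) encodes a lipid-sensing receptor that signals through the Tyrobp adaptor. It was listed at 1.61, 0.728, 0.785 and 0.361 FPKM in the male libraries (1 to 4) and at 1.99, 3.30, 2.04 and 2.26 FPKM in female 1 to female 4. The groups did not overlap, though male 1 came close to female 1. The difference of -0.89 ± 0.24 on the log2 scale missed the threshold (limma adjusted p = 0.0508). It was called without male 1 (adjusted p = 0.0253), without male 1 and female 3 together (0.0355) and with a pseudocount of 5 (0.0458), and its reported value passes a threshold of 0.1.

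P2ry12 (ENSRNOG00000013902), the gene of the ADP receptor that directs microglial processes, was listed at 0.734, 1.33, 0.955 and 0.659 FPKM in the male libraries (1 to 4) and at 2.42, 1.50, 2.42 and 1.03 FPKM in female 1 to female 4. Female 4 lay below male 2, so the groups overlapped. The difference of -0.55 ± 0.23 was not called in the main analysis (limma adjusted p = 0.208) or in any of 17 alternatives (lowest adjusted p 0.150). In GRCr8 the gene overlaps Med12l, a Mediator subunit gene, and the use of strand in counting is not given, so reads of the pair may not be told apart. Med12l itself stood at 6.25 ± 2.63 against 6.37 ± 1.54 FPKM (n = 4 each) and was not called (adjusted p = 0.899).

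The integrin row that Itgam shares with Itgad (ENSRNOG00000019728) was listed at 0.366, 0.331, 0.0795 and 0 FPKM in the male libraries (1 to 4). It stood at 0.603, 0.432, 0.794 and 1.15 FPKM in female 1 to female 4. Itgam encodes the alpha chain of complement receptor 3, CD11b. The groups did not overlap, but the row was too low for the main analysis, and without a filter its difference was -0.54 ± 0.16 (limma adjusted p = 0.117). Itgb2, the gene of the beta chain that pairs with it, was listed at 0.269, 0.243, 0.175 and 0.121 FPKM in the male and at 1.33, 0.550, 0.480 and 0.504 FPKM in the female libraries. These groups did not overlap either, and the difference without a filter was -0.49 ± 0.16 (adjusted p = 0.146).

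Fcer1g (ENSRNOG00000024159) was the most abundant member in FPKM. It was listed at 9.74, 3.06, 6.06 and 3.79 FPKM in the male libraries (1 to 4) and at 22.5, 25.5, 17.1 and 19.7 FPKM in female 1 to female 4. Even female 3, the lowest female library, lay well above male 1, the highest male one. The difference was -1.83 ± 0.27 on the log2 scale (limma adjusted p = 0.00606), and the call was kept in all 18 alternatives (adjusted p from 0.000735 to 0.0230).

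Tyrobp (ENSRNOG00000020845), the other ITAM adaptor, was listed at 4.05, 3.25, 3.51 and 0.806 FPKM in the male libraries (1 to 4) and at 14.9, 4.92, 7.72 and 7.55 FPKM in female 1 to female 4. All female values were above all male ones, with female 1 and male 4 far from the rest of their groups. The ratio of means, female over male, was 3.02 for Tyrobp and 3.12 for Csf1r. The Tyrobp difference of -1.33 ± 0.37 on the log2 scale had a larger error than that of Csf1r, and it missed the threshold (limma adjusted p = 0.0695). At the threshold of 0.05 it was called in 1 of 18 alternatives, with the replicate number as a block (adjusted p = 0.0451), and it passed a threshold of 0.1. Hcst, which encodes the related adaptor DAP10 and is the next protein-coding gene to Tyrobp in GRCr8, was listed at 0 in all 4 male libraries and in female 1 and female 2. It stood at 0.752 FPKM in female 3 and at 1.40 FPKM in female 4.

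Ptprc (ENSRNOG00000000655), the gene of the leukocyte phosphatase CD45, was the lowest member. It was listed at 0.134, 0.0810, 0.233 and 0.322 FPKM in the male libraries (1 to 4) and at 0.295, 0.244, 0.549 and 0.252 FPKM in female 1 to female 4. Male 4 lay above 3 of the female libraries. The gene was below the filter, and without it the difference was -0.16 ± 0.11 on the log2 scale (limma adjusted p = 0.538).

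Aif1 (ENSRNOG00000000853) was listed at 3.26, 2.21, 1.59 and 3.66 FPKM in the male libraries (1 to 4) and at 8.13, 7.81, 6.18 and 12.2 FPKM in female 1 to female 4. Its groups were clearly apart, and female 4 was the highest library. Its call held in all 18 alternatives (limma adjusted p from 0.00452 to 0.0255). Cd68 (ENSRNOG00000037563) was listed at 3.53, 3.02, 1.69 and 3.33 FPKM in the male libraries and at 16.6, 13.2, 8.30 and 7.65 FPKM in the female ones. Mean Cd68 was 3.95 times as high in female cultures, at 2.89 ± 0.828 against 11.4 ± 4.22 FPKM (n = 4 each). The difference was -1.64 ± 0.25 on the log2 scale (limma adjusted p = 0.00443), and it too was called in all 18 alternatives (adjusted p from 0.00271 to 0.0171).

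**Figure D3:**
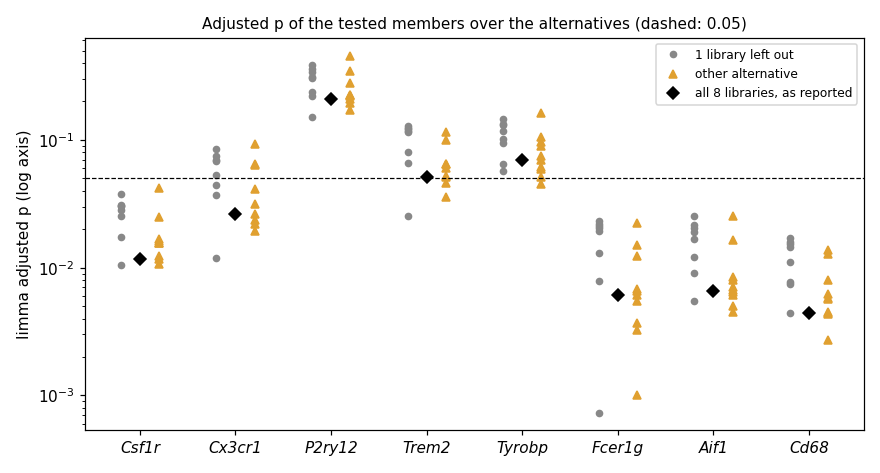
Adjusted p of the 8 members that passed the filter, on a log axis. Diamonds are the reported values, grey points leave out 1 library each, and triangles are the other alternatives. All points of Csf1r, Fcer1g, Aif1 and Cd68 lie below the dashed line at 0.05, all of P2ry12 above it, and those of Cx3cr1, Trem2 and Tyrobp on both sides.

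The depth behind the low members could be read from the spacing of their values. Multiplied by the depth of the library relative to male 1, the values of Cx3cr1, P2ry12, Trem2 and Ptprc were whole multiples of 1 step per gene, within 0.1 of a step, as were those of 72.9% of 2986 genes with a mean from 0.2 to 2 FPKM. A step is taken as 1 fragment or a part of 1, which the table does not state. Cx3cr1 held 3, 3, 2 and 0 steps in male 1 to male 4 and 6, 5, 7 and 9 in female 1 to female 4. Trem2 held 8, 2, 3 and 1 steps in the male and 3, 6, 10 and 6 in the female libraries. Its male 1 value therefore rests on more steps than those of the other 3 male libraries together.

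P2ry12 held 4, 4, 4 and 2 steps in male 1 to male 4, so the male 1 to male 3 values differ in FPKM only through the depth. In the female libraries it held 4, 3, 13 and 3 steps, most of them in female 3. Ptprc held 3, 1, 4 and 4 against 2, 2, 12 and 3 steps, again with most of the female steps in female 3, the deepest female library. Pooled per unit of relative depth, female libraries held 4.45 times as many steps of Cx3cr1 as male ones, 2.35 times as many of Trem2, 2.17 times as many of P2ry12 and 2.09 times as many of Ptprc. The Trem2 ratio was 3.58 without male 1. Without female 3 the ratio was 1.71 for P2ry12, 1.40 for Ptprc, 2.56 for Trem2 and 5.98 for Cx3cr1. Both alternatives were chosen after seeing the data. In all, male and female libraries held 8 and 27 steps of Cx3cr1, 14 and 25 of Trem2, 14 and 23 of P2ry12 and 12 and 19 of Ptprc. With so few steps, the values of all 4 genes are coarse. They cannot show that P2ry12 and Ptprc differed less than the other members, and the Cx3cr1 ratio of 4.45 has the same limit. No step was found for the other members with this tolerance.

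**Figure D4:**
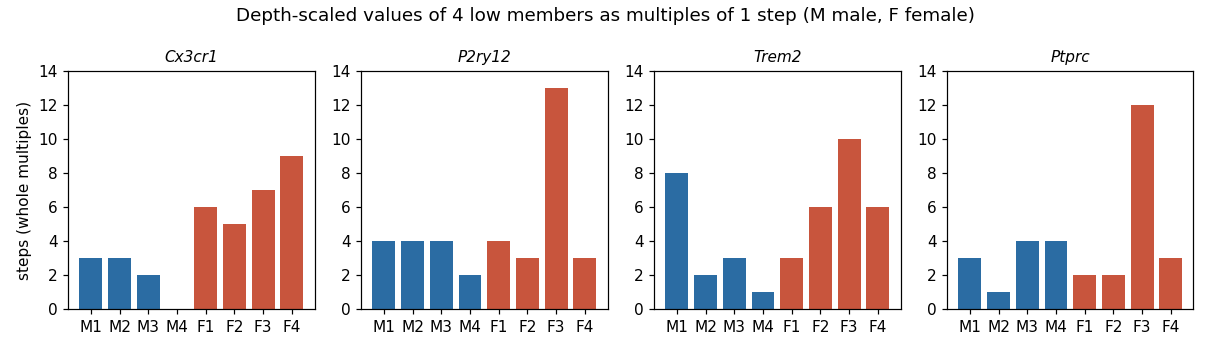
Values of Cx3cr1, P2ry12, Trem2 and Ptprc in each library (M male, F female), scaled by relative depth and given as whole multiples of 1 step per gene. No bar is higher than 13 steps, and male 4 holds no step of Cx3cr1.

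Whether single members differed beyond what the whole set did was asked from the make-up of their sum. The 9 members with their own row summed to 25.5, 16.5, 16.0 and 14.8 FPKM in the male libraries and to 77.4, 63.3, 49.2 and 58.2 FPKM in female 1 to female 4. The means were 18.2 ± 4.93 and 62.0 ± 11.8 FPKM (n = 4 each), a ratio of 3.41, which ranged from 3.13 to 3.93 with 1 library left out. For comparison, the OPC receptor gene Pdgfra alone stood at 229 ± 10.4 and 303 ± 27.8 FPKM. Within the sum, Fcer1g took 30.1% ± 9.63 in male and 34.5% ± 4.59 in female cultures, Cd68 16.3% ± 5.24 and 18.1% ± 3.85, and P2ry12 5.33% ± 2.20 and 3.05% ± 1.37. Across the 70 possible assignments of libraries to sexes, no share passed an exact permutation test, two-sided (smallest p = 0.143, for P2ry12, and adjusted p = 0.657 for each of the 9). The smallest p that this design allows is 0.0286, so after adjustment over the 9 shares no single share could have passed alone. Shares of one sum are also not independent, so differences in make-up of this size could not be resolved.

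**Figure D5:**
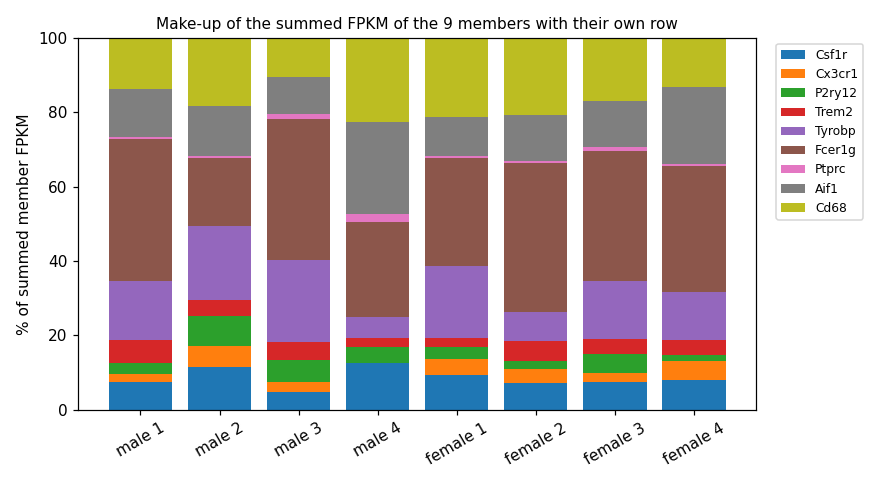
Share of each member in the summed FPKM of the 9 members with their own row, in percent, for each library. Fcer1g is the largest part in every library but male 2, where Tyrobp (19.7%) exceeds it (18.5%). For each of the 9 members the shares vary more among the male libraries than among the female ones.

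Within each sex the members did not follow a common order of libraries. Male 1 was the highest male library for 5 of the 9 members and female 1 the highest female one for 4, while female 3 was the lowest female library for 4. With the mean of each sex taken out, the correlation between pairs of the 8 tested members over the 8 libraries ran from -0.74 for P2ry12 and Aif1 to 0.84 for Csf1r and Cd68. The median of the 28 pairs was 0.18, and 23 were positive. These values share libraries and depth and are given as a description.

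The non-member genes most like the mean z score of the 8 tested members over all 8 libraries were Sema5b (Pearson r = 0.995), the unnamed gene AABR07006310.1 (0.985), Arg2 (0.982), Serinc5 (0.981) and Tgfa (0.979), followed by Eif2a, Caskin2, Smoc1, Erbb3 and Sox8 (0.975 to 0.977). All 10 were themselves called as higher in female cultures. This follows largely from the choice, because the score itself was higher there. The score also held Cx3cr1, P2ry12 and Trem2, which passed the filter through their female values. Erbb3, a neuregulin receptor gene, and Sox8, a transcription factor gene, belong to the oligodendrocyte lineage, and none of the 10 is among the listed microglial genes. With the mean of each sex taken out, the highest were Psmf1 (0.979), Smn1 (0.976), Phf7 (0.970), Opn3 (0.968) and Cpm (0.965), then Ik, Atp13a2, Acap3, Spg21 and Ubap1 (0.949 to 0.963). The pair of lists had no gene in common, and with 8 libraries and 11263 genes high correlations are easily reached.

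Genes that act with the members were taken from 6 further lists, of ligands, partner receptors, ITAM signalling, myeloid transcription factors, other microglial genes and genes of activated microglia. Together 39 of their genes were tested, of which 18 were called as higher in female and 2 as higher in male cultures, against 2.89% and 3.14% of all tested genes. Of the 18, 6 had a male mean below 1 FPKM and so passed the filter through their female values. Without a filter 18 of 82 were called as higher in female and 1 as higher in male cultures, against 1.63% and 1.73% of all genes. The count for female cultures fell to 11 when male 2 or male 3 was left out and when a depth covariate was added, and that for male cultures was 1 without any single library but female 3.

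Of 9 ligand genes 6 were tested, with a median difference of 0.09 against -0.004 over all tested genes, and 2 were called as higher in female cultures. The share over all tested genes was 2.89%. Without a filter 2 of 9 were called in this direction, against 1.63% of all genes. Of the 2, C3 passed the filter through its female values, with a male mean of 0.914 FPKM. C3, whose cleaved product binds CD11b, was listed at 1.07, 0.594, 0.961 and 1.03 FPKM in the male and at 3.78, 4.25, 2.39 and 4.31 FPKM in the female libraries (-1.28 ± 0.20, limma adjusted p = 0.00515), without overlap. Apoe, which encodes a lipoprotein that binds TREM2, stood at 16.1 ± 4.08 against 32.8 ± 8.74 FPKM (-0.97 ± 0.22, adjusted p = 0.0314). Leaving out male 2, male 3, female 1, female 2 or female 4 in turn ended the call (adjusted p at most 0.0975), and so did a depth covariate (0.0781).

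The ligand genes of the called receptors were not called. Csf1 stood at 2.97 ± 1.27 against 2.28 ± 1.01 FPKM (adjusted p = 0.628) and Cx3cl1, the fractalkine gene, at 8.26 ± 0.881 against 6.45 ± 0.395 FPKM (0.31 ± 0.12, adjusted p = 0.159), where the mean was higher in male cultures. Il34 was listed at 0 in 6 libraries and at 0.126 FPKM in male 1 and 0.129 FPKM in female 3.

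Of 19 partner receptor genes 3 were tested and 2 called, and both of these passed the filter through their female values. Without a filter 2 of 14 were called as higher in female cultures, where the share over all genes was 1.63%. Gpr34, a lysolipid receptor gene of microglia, was listed at 0.705, 0.637, 0 and 0.316 FPKM in the male and at 1.75, 1.92, 1.08 and 1.98 FPKM in the female libraries (-0.94 ± 0.25, limma adjusted p = 0.0479). Clec4a3, a lectin receptor gene, stood at 0.477 ± 0.128 against 1.85 ± 0.482 FPKM (-0.94 ± 0.21, adjusted p = 0.0263). Both lost their calls without any of the 4 male libraries in turn, and Clec4a3 also without female 1, female 2 or female 3. Sirpa, which encodes an inhibitory receptor that neurons also express, was not called (14.7 ± 1.67 against 12.9 ± 1.12 FPKM, adjusted p = 0.386).

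Downstream of the adaptors, 3 of 18 ITAM signalling genes were tested and 1 was called as higher in female cultures, against 2.89% of all tested genes. Without a filter 1 of 18 was called in this direction, against 1.63% of all genes. The median difference of -0.53 is that of Ptpn6, which passed the filter through its female values. Rac2, the gene of a blood cell GTPase, stood at 1.42 ± 0.724 against 3.98 ± 0.930 FPKM (-1.07 ± 0.23, limma adjusted p = 0.0205). Leaving out male 2, male 3 or female 4 in turn ended this call (adjusted p at most 0.0699), as did a depth covariate (0.0684). Syk was listed at 0.515, 0.777, 0.762 and 0.854 FPKM in the male and at 0.391, 1.07, 0.485 and 0.953 FPKM in the female libraries, so that the groups overlapped. The kinase gene Lyn (7.20 ± 1.07 against 6.88 ± 0.861 FPKM, adjusted p = 0.863) and the phosphatase gene Ptpn6 (0.718 ± 0.279 against 1.48 ± 0.371 FPKM, adjusted p = 0.195) were not called.

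Of 9 myeloid transcription factor genes 4 were tested and 0 called (limma; 1 of the 4, Mef2c, had an unadjusted p under 0.05). Mef2c was higher in every male library, at 2.33, 3.16, 4.20 and 2.55 FPKM, than in any female one, at 1.62, 2.05, 1.21 and 1.23 FPKM (0.67 ± 0.20, adjusted p = 0.0722). Spi1, the gene of PU.1, was listed at 0.553, 0, 0.144 and 0.596 FPKM in the male and at 0.729, 0.603, 0.676 and 0.83 FPKM in the female libraries. Irf8 was listed at 0.0747, 0.676, 0.292 and 0.403 FPKM in the male and at 1.23, 1.22, 0.915 and 1.12 FPKM in the female ones. Neither overlapped between the sexes, both were below the filter, and without it neither was called (adjusted p = 0.269 and 0.0618).

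Of 20 other microglial genes 14 were tested, with a median of -1.30, and 9 were called as higher in female cultures and 1 as higher in male ones. Of all tested genes 2.89% and 3.14% were called in these directions. Of the 9, 2 had a male mean below 1 FPKM and so entered the test and the median through their female values. Without a filter 9 of 20 were called as higher in female and 0 as higher in male cultures, against 1.63% and 1.73% of all genes. Besides C1qa, C1qb and C1qc, the complement genes, and Lyz2, a lysozyme gene, the called genes included Ctss and Laptm5, named after their values were seen. Ctss, which encodes a lysosomal protease, stood at 3.52 ± 1.88 against 12.5 ± 2.95 FPKM. The exception, chosen for naming by its value, was Olfml3 at 5.99 ± 0.222 against 3.83 ± 0.690 FPKM (0.54 ± 0.14, limma adjusted p = 0.0421), a call that ended without any single library but female 3, with no filter, with the block and with the depth covariate. Selplg, also named after its values were seen, was listed at 0 in all 4 male libraries and at 2.40, 0.991, 1.29 and 1.36 FPKM in female 1 to female 4. Tmem119, a marker of resident microglia, overlapped between the sexes, at 0.401, 0.181, 0.130 and 0.180 FPKM in the male and 0.330, 1.64, 0.715 and 0.376 FPKM in the female libraries.

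Of 14 genes of activated microglia 9 were tested, with a median of -0.73, and 4 were called as higher in female cultures. The share over all tested genes was 2.89%. Of the 4, 1 had a male mean below 1 FPKM and so passed the filter through its female values. Without a filter 4 of 12 were called in this direction, against 1.63% of all genes. Gpnmb, a glycoprotein gene, stood at 2.69 ± 0.620 against 9.27 ± 1.86 FPKM (-1.48 ± 0.17, limma adjusted p = 0.00096). Ctsb (214 ± 18.4 against 295 ± 8.74 FPKM) and Cd9 (26.6 ± 3.95 against 44.7 ± 5.81 FPKM) were present at levels above those of the members. Lpl, the lipoprotein lipase gene, was called as higher in male cultures, at 17.9 ± 1.04 against 10.6 ± 2.12 FPKM (0.73 ± 0.14, adjusted p = 0.0119). The genes Itgax and Tnf were listed at 0 in all 8 libraries.

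Markers of other cells were looked at by list. All 7 neutrophil and blood genes, and 8 of 11 lymphocyte genes, Cd3e among them, were listed at 0 in every library. The 11 lymphocyte genes summed to 0.189 to 0.457 FPKM in male and 0.345 to 2.09 FPKM in female libraries. Cd4 reached 1.90 FPKM in female 4. Border macrophage genes, at levels within the range of the lower members, summed to 0.287 to 1.90 FPKM in male and 1.01 to 3.24 FPKM in female libraries, and Mrc1 was listed at 0.198, 0.287, 0.207 and 0.571 FPKM in the male and at 0.784, 0.541, 0.608 and 0.894 FPKM in the female ones. Of 7 OPC markers 3 were called as higher in female cultures (Gpr17, Pdgfra and Sox10) and of 7 neuron markers 3 as higher in male cultures (Gad1, Syt1 and Stmn2). Over all tested genes the shares called were 2.89% in the female and 3.14% in the male direction. Of the other neuron markers, Snap25 had a higher mean in male cultures. Map2, Rbfox3 and Tubb3, named after their values were seen, had higher means in female cultures, and none of these was called. The neuron markers summed to 269 to 289 FPKM in male and 239 to 345 FPKM in female libraries, so their sums overlapped. The Sox10 call ended without any single library but male 1, and that of Stmn2 without any but female 4. None of 5 tested astrocyte markers was called by limma, where 2 (Aldoc and Slc1a3) had an unadjusted p under 0.05. The part of these shifts, and of depth, in the members' differences was not tested.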

How the data were processed

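The authors deposited 1 table of FPKM values, per the file headers, for 8 libraries made from total RNA with a strand-specific Agilent SureSelect kit, per the labels' protocols. The submitters' processing notes name Trimmomatic and FastQC without versions. Aligner, FPKM program, build, annotation and use of strand were not given in the sources used here. As no counts are held, no count model was fitted. The 11263 genes averaging 1 FPKM or more entered 1 fit of log2(FPKM + 1) in limma 3.58.1 (R 4.3.3, trend and robust options on), with Benjamini-Hochberg adjustment and a threshold of 0.05. The fit was tested on simulated data. Relative depth, from 0.303 to 1, came from the most frequent ratio of low values to those of male 1, and absolute depth is unknown. Between 12709 and 14014 genes were above 0 per library.

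The members and lists were chosen with earlier results of these data known. Named genes are the members, up to 4 genes with the smallest p per list, a fixed set, the 10 most similar genes of each kind, and those marked as chosen later. Alternatives were pseudocounts of 0.1 and 5, no filter (genes above 0 in at least 1 library), a minimum mean of 5 FPKM, quantile and median ratio scaling, replicate block, depth covariate, no robust moderation, an adjusted p threshold of 0.1, and libraries left out. Proteins were not used here. A gene of 1 list is not reported here by name.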

Additional observations from a re-analysis of the deposited data

Results flagged for a closer look

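Among 126 groups of 4 values, 10 held a value whose gap to the nearest other, as a share of the range, was above the 95% critical value of Dixon's test. Chance flags about 1 in 20 groups. Among the members, Csf1r was low in male 3, at 0.746 FPKM, and Ptprc was high in female 3, at 0.549 FPKM, where it made up 1.12% of the summed members. That sum was high in male 1, at 25.5 FPKM. Of the other named genes, Itgb2 was high in female 1 (1.33 FPKM), Ptpn6 low in female 3 (0.922 FPKM), Cx3cl1 low in male 4 (6.95 FPKM) and Syt1 low in female 2 (10.4 FPKM). Il34 was above 0 only in male 1 (0.126 FPKM) and female 3 (0.129 FPKM), the deepest library of each sex.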

How the results depend on the processing

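The count of members called as higher in female cultures was 5 and ranged from 4 to 6 with 1 library left out, was 7 at an adjusted p threshold of 0.1, and no alternative called a member as higher in male cultures. With a minimum mean of 5 FPKM it was 3, of the 4 members that this filter keeps. All 10 rows kept the sign of their difference in the alternatives run. Over all genes, the calls higher in female and in male cultures (326 and 354) were 189 and 208 with the replicate number as a block, 188 and 179 with relative depth as a covariate, and 547 and 602 at an adjusted p of 0.1. With 1 library left out they ranged from 149 to 354 and from 147 to 454, with the lowest counts without male 3. For the 6 related lists the counts of 18 and 2 were 10 and 1 with that filter and 11 and 1 with the depth covariate, and ranged from 11 to 17 and from 1 to 2 with 1 library left out. The male count of these lists was 1 with no filter and 1 with the block. Whether same-numbered libraries belong together is not stated in the labels. Correlations of same-numbered deviations ran from -0.20 to 0.087, and the highest of any male and female pair was 0.42, for male 1 and female 3. Such values cannot show how the libraries were prepared. With the replicate block the calls of Cx3cr1, Sox10, Clec4a3, Gpr34 and Olfml3 were among those lost and that of Tyrobp gained. Share differences, male minus female in percentage points with 1 library left out, ranged from -0.0499 (without male 4) to 2.55 for Csf1r, -0.0369 (without male 1) to 1.25 for Trem2, -0.258 (without male 3) to 5.23 for Tyrobp, which was also negative without female 2 (-0.249), -2.04 (without male 4) to 3.42 for Aif1, which was also negative without female 1 (-0.0524), and -3.83 to 0.175 (without male 3) for Cd68. These 5 changed sign, and the cause was not tested. No share passed its test, which after adjustment no single share could have done alone.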
